A study of Rattus norvegicus with 18 samples.

Results

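FRTL5 cells that had been in thyroid-stimulating hormone (TSH) for 17 h were compared with FRTL5 cells that had been in it for 30 min, to see which transcripts of the early response were gone by the later time and which appeared only then. FRTL5 is an established, differentiated rat thyrocyte line. Its cells were kept for 5 days in the TSH-free medium 5H, spent the last 12 h without serum, and then received bovine TSH at 0.1 U/L. The comparison used 6 of the 18 arrays of the series, 3 biological replicates at 17 h and 3 at 30 min. The other 12 arrays were 3 of untreated (basal) FRTL5 cells and 9 of FRT/TSHR cells, a de-differentiated rat thyroid line that carries the TSH receptor as its name states, at 17 h and 30 min of 1 U/L TSH and at basal. FRT/TSHR cells were kept in another medium, the F12 of Ham as modified by Coon, before the same 12 h without serum, so line, dose and medium differed together. All 8740 probe sets of the table other than its 59 controls were tested, and each of 4736 genes was read from 1 of them. No untreated group stood beside either time, so a change with TSH and a change with further hours in culture cannot be told apart.

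TSH binds a receptor on the thyrocyte surface that raises cyclic AMP, and protein kinase A then phosphorylates the transcription factor CREB. Genes that need no new protein for their transcription, the immediate early genes, respond within minutes, and many of them encode transcription factors or inhibitors that end their own expression. In FRTL5 cells TSH is also the signal for growth and for the uptake of iodide, processes that take hours.

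Of the 8740 probe sets 368 differed between the times, which was 4.21% of those tested (limma, adjusted p under 0.05, called hereafter). The signal was higher at 17 h for 163 and lower for 205. At least 2-fold differences were found for 56 of the higher and 60 of the lower probe sets. By gene, 102 were called higher at 17 h (2.15% of 4736) and 124 lower (2.62%), while the median difference over all genes was -0.0005 on the log2 scale. The 3 arrays of each time did not overlap for 1494 probe sets (17.1%), 367 of the 368 called ones among them. Where the groups of a called gene are said below to be apart, that adds no support to its call. With the replicate number of each line as a block the count was 916, 417 higher and 499 lower. A fit of the 6 arrays alone, called the 6-array fit hereafter, gave 189, and it ended 49 of the 115 calls among the named genes. The number of called probe sets was 145 without replicate 2 of the 30 min arrays, 219 without replicate 3 of that time, 230 without replicate 2 of the 17 h arrays and 200 without replicate 3 of that time. The plot of difference against level shows both ends of the range.

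**Figure D1:**
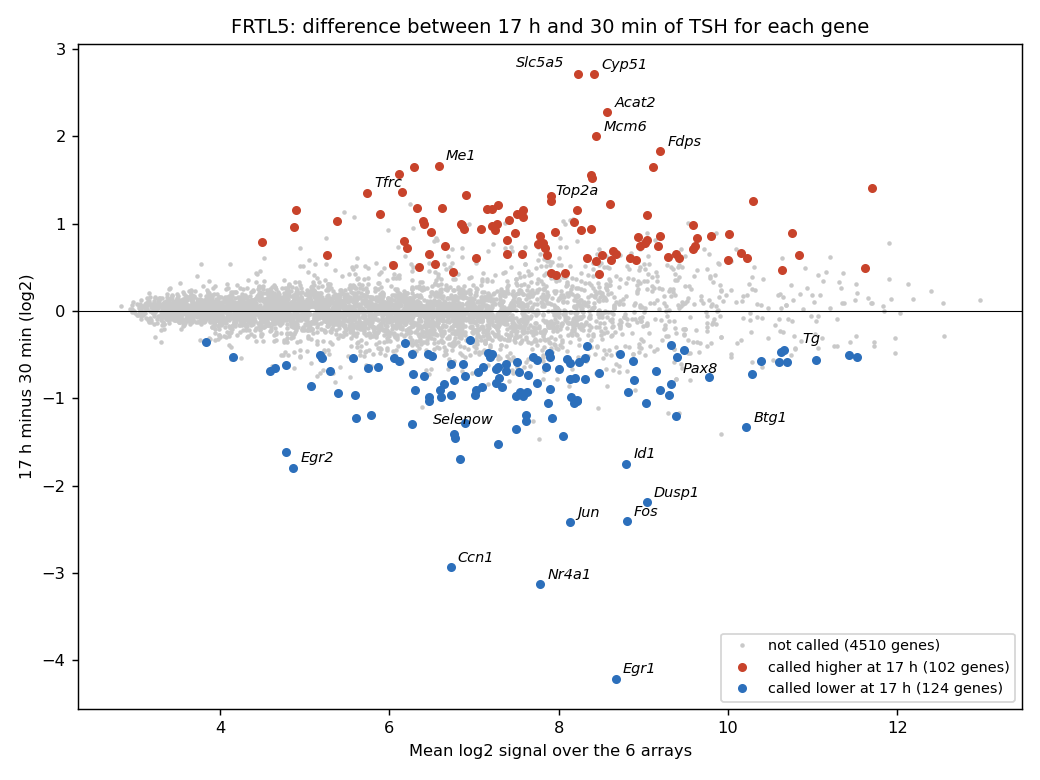
Each point is 1 of 4736 genes. The horizontal axis is the mean log2 signal over the 6 arrays and the vertical axis the 17 h mean minus the 30 min mean (log2). Red points are the 102 genes called higher at 17 h and blue points the 124 called lower. Egr1, at -4.21, lies farthest from 0, and Slc5a5 and Cyp51, both at 2.71, are the highest.

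The markers of thyrocytes and of other cell types are given first, as signals that cannot be compared between lists because each probe set has its own scale. Over the 13 measured thyroid genes the mean log2 signal was 7.10 to 7.76 at 17 h and 6.97 to 7.46 at 30 min. It was 4.56 to 4.63 at 17 h and 4.53 to 4.67 at 30 min over 13 C cell and neuroendocrine markers, 4.84 to 4.95 and 4.82 to 4.91 at the same times over 16 leukocyte markers, and 5.21 to 5.34 and 5.29 to 5.40 over 13 fibroblast and smooth muscle markers. No member of those 3 lists was called (1 fibroblast and smooth muscle marker was lower with the replicate block). Of 8 endothelial markers 1 was called lower, the peptide hormone gene Edn1 (-0.86, adjusted p = 0.0346), and its call ended without replicate 2 (0.160) or 3 (0.0953) of the 30 min arrays or replicate 1 (0.101) or 2 (0.132) of the 17 h arrays. The FRTL5 arrays numbered 1 stood apart. Their beta-actin signal was higher at the 3′ end of the transcript than at the 5′ end, by 1.20 at 17 h and 1.13 at 30 min (log2), against -0.04 to 0.04 on the other 4 arrays. The basal array numbered 1 had a like gap of 1.22.

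**Figure D2:**
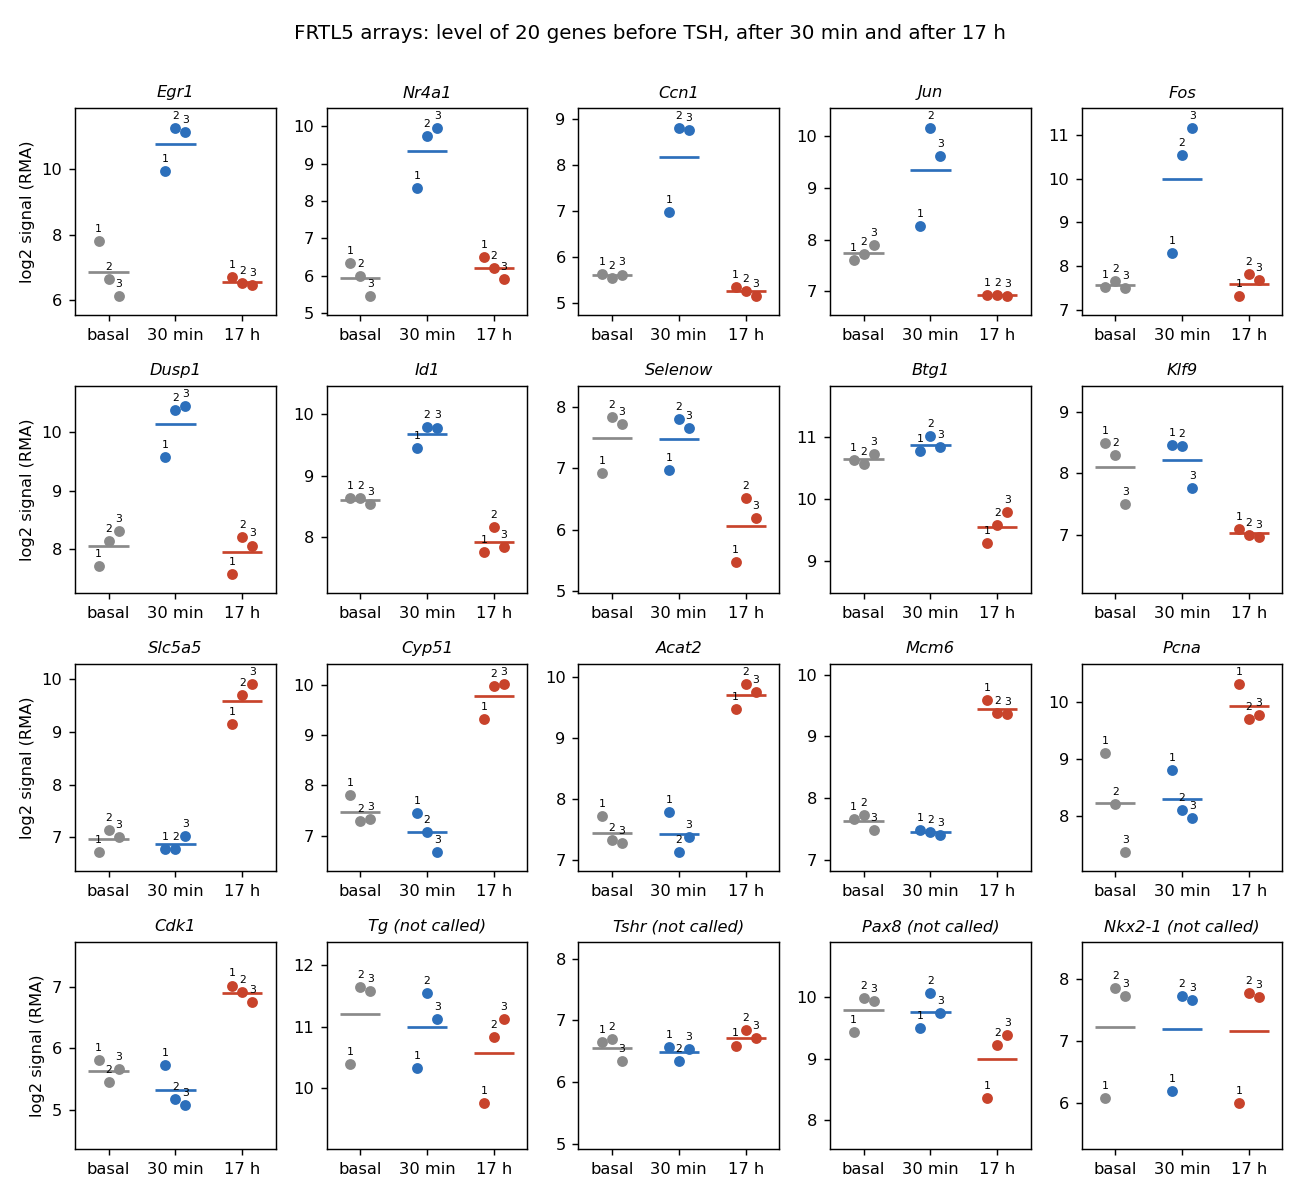
Log2 signal of 20 genes on the 9 FRTL5 arrays, in the order basal, 30 min and 17 h. Points are arrays, the small digits are their replicate numbers, and bars are means of 3. Egr1, Nr4a1, Ccn1, Fos and Dusp1 are high at 30 min only. Jun and Id1 are highest at 30 min, with the basal mean between those of the 2 TSH times. Selenow, Btg1 and Klf9 are low at 17 h only, and Slc5a5, Cyp51, Acat2, Mcm6, Pcna and Cdk1 are high at 17 h only. Tg, Tshr, Pax8 and Nkx2-1 were not called.

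Egr1 and Nr4a1, which differed most, are immediate early transcription factors, and all called members of that list were lower at 17 h. Of its 24 measured members 12 were called lower and 0 higher, beside 2.62% and 2.15% of all genes. Their median difference was -1.19, against -0.0005 for all genes. This list and the others below were written with earlier results of these data known, so such shares are a description only. Egr1, a zinc finger factor induced by mitogens, had log2 signals of 6.71, 6.54 and 6.45 at 17 h and 9.94, 11.26 and 11.13 at 30 min. Every 17 h array lay over 3 log2 units below every 30 min array of Egr1, an 18.5-fold lower mean (-4.21 ± 0.58 SE, adjusted p = 0.000875). Nr4a1, an orphan nuclear receptor transcribed in response to CREB, had 6.52, 6.22 and 5.92 at 17 h and 8.35, 9.73 and 9.96 at 30 min. Its groups were also apart and its mean was 8.75-fold lower (-3.13 ± 0.33, adjusted p = 7.05e-05). The related receptor Nr4a3 had the tightest values of the list, 6.15, 6.01 and 6.01 at 17 h and 7.42, 7.46 and 7.64 at 30 min (-1.45 ± 0.10, adjusted p = 5.57e-07). Of the 3 probe sets of Nr4a3 only this 1 was called.

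The promoters of Egr1 and Nr4a1 are shown because these are the members of the list with the largest differences. They are the 250 bases before the start site in the GRCr8 RefSeq table, Egr1 at chr18:26736828-26737077 and Nr4a1 at chr7:134259888-134260137, both on the plus strand, read 5′ to 3′. Capitals mark TGACG, the core of the cAMP response element, on either strand (CGTCA where it lies on the other one), and the CArG box of the serum response element, where the letters CC and GG flank 6 bases of A or T.
Egr1: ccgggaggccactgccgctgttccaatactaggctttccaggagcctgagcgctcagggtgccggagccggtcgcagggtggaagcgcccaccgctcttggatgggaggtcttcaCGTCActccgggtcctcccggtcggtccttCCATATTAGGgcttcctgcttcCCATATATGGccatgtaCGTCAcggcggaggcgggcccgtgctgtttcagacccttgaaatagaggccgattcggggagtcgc
Nr4a1: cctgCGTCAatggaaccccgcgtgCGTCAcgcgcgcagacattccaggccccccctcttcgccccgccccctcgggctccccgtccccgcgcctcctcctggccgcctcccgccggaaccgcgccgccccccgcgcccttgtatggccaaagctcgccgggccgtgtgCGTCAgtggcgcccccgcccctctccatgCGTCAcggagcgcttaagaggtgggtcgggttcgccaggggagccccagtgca
Egr1 held 2 CArG boxes and 2 TGACG cores, and Nr4a1 held 4 cores and no CArG box. Motifs were searched on both strands in the 250 bases before and 50 after each start. Over all 27457 promoters of this source 22.0% held TGACG and 1.64% a CArG box. Of the 24 measured members of the list 16 had a promoter in the table, of which 9 held TGACG and 3 a CArG box. TGACG was not particular to this list, as 28.5% of the promoters of measured genes, 8 of 14 in the cholesterol list and 9 of 19 in the DNA replication list held it. These are matches of letters only.

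Of the 24 members 22 had values below 0 and 2 above, and 12 were not called. Fos and Jun encode the partners of the AP-1 factor. Fos had 7.32, 7.81 and 7.67 at 17 h and 8.29, 10.55 and 11.17 at 30 min (-2.41 ± 0.46, adjusted p = 0.00762). Jun had 6.94, 6.93 and 6.91 at 17 h and 8.27, 10.16 and 9.61 at 30 min (-2.42 ± 0.40, adjusted p = 0.00267). In both genes the groups were apart, and replicate 1 was the lowest of the 30 min arrays by more than 1 log2 unit. Egr2, of the same family as Egr1, had 4.03, 4.02 and 3.85 at 17 h and 4.22, 6.60 and 6.48 at 30 min (-1.80 ± 0.41, adjusted p = 0.0202). Replicate 1 of Egr2 thus lay close to the 17 h arrays, and its signals on all of these were below the array medians of 5.50 to 5.58. The growth regulator Myc was 2.28-fold lower at 17 h, with 5.06, 5.16 and 5.33 there and 5.90, 6.59 and 6.64 at 30 min (adjusted p = 0.0113). Ier3 (-1.69), Klf10 (-0.76) and Klf9 (-1.20) were called lower too. Ier3 is on the list, although it encodes no transcription factor. Id1 and Id3 encode inhibitors of basic helix-loop-helix factors. Id1 had 7.77, 8.17 and 7.84 at 17 h and 9.45, 9.79 and 9.79 at 30 min (-1.75 ± 0.15, adjusted p = 9.56e-06), and Id3 differed by -1.20. All probe sets of Fos, Myc and Nr4a1 were called lower. For Egr1 it was 3 of 4, for Jun 2 of 4, and for Id1 and Ier3 1 of 2 each. Members that were not called included Junb (-1.47, adjusted p = 0.0739), Atf3 (-0.21) and Egr3 (-0.01). The count of 12 was 8 without replicate 2 of the 30 min arrays and 16 with the replicate block. Calls ended for Fos (adjusted p = 0.0503) and Klf9 (0.0602) without that array, for Myc without it (0.0612) or without replicate 3 of the 30 min arrays (0.0527), and for Egr2 without either (0.110 and 0.0973), without replicate 2 of the 17 h arrays (0.0539) or without replicate 3 of that time (0.0766). Fos (0.138) and Egr2 (0.218) were not called in the 6-array fit.

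Of 7 measured MAP kinase phosphatases and feedback genes 3 were called lower, beside 2.62% of all genes, and 2 had values above 0. Dusp1, which dephosphorylates MAP kinases in the nucleus, had 7.58, 8.20 and 8.06 at 17 h and 9.57, 10.37 and 10.45 at 30 min (-2.19 ± 0.25, adjusted p = 0.000154). Its 3 probe sets were all called lower. Dusp6, which acts on ERK in the cytoplasm, differed by -1.53 (adjusted p = 0.00688) and the nuclear ERK phosphatase Dusp5 by -1.35 (adjusted p = 0.0311). The count was 2 without any of the 5 arrays other than replicate 1 of the 30 min group, and the call for Dusp5 ended without any of those 5 (adjusted p 0.0663 to 0.160) and in the 6-array fit (0.148). Of 8 genes of mRNA decay and growth arrest 4 were called lower and 1 higher. Zfp36, whose protein binds AU-rich elements and speeds the decay of short-lived transcripts, had 7.61, 7.64 and 7.70 at 17 h and 7.73, 8.87 and 9.32 at 30 min (-0.99, adjusted p = 0.0476). Without any of the same 5 arrays it was not called (adjusted p 0.116 to 0.212), nor in the 6-array fit (0.298). Of 19 genes listed as cAMP-CREB targets 6 were called lower and 0 higher, namely Nr4a1, Nr4a3, Fos, Dusp1, Id1 and Id3, all of which are named above. Of 23 components of the cAMP pathway itself (receptor, G protein, cyclase, kinase and phosphodiesterase genes) 0 were called, with a median of 0.05 and a range from -0.68 to 0.35; with the replicate block 1 was called higher and 2 lower.

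Of 23 other early genes 2 were called lower, Ccn1 and the kinase gene Pim3, beside 2.62% of all genes. Ccn1 encodes a secreted matrix protein that binds integrins. It had 5.35, 5.26 and 5.16 at 17 h and 6.99, 8.82 and 8.77 at 30 min, a 7.65-fold lower mean (-2.94 ± 0.45, adjusted p = 0.00142). Pim3 had 7.34, 8.06 and 7.71 at 17 h and 8.27, 9.01 and 8.91 at 30 min (adjusted p = 0.00691). Gadd45a, a growth arrest gene of this list, was not called (-1.17, adjusted p = 0.0630), although another of its 4 probe sets was called lower. Without replicate 1 of the 30 min arrays 4 of these 23 were called lower and 1 higher, and with the replicate block 5 lower and 1 higher. Acta1, the skeletal muscle actin, and Myl6, a myosin light chain, were lower as well. Acta1 had 3.95, 4.09 and 3.85 at 17 h and 4.43, 6.24 and 6.08 at 30 min (-1.62, adjusted p = 0.00786), so replicate 1 again lay near the 17 h arrays. The Acta1 signals on those arrays were below the array medians of 5.50 to 5.58, and detection was not measured. Myl6 had 7.28, 7.37 and 7.27 at 17 h and 8.01, 8.81 and 8.76 at 30 min (-1.22, adjusted p = 0.0132). Its call ended without replicate 2 (adjusted p = 0.0746) or replicate 3 (0.0584) of the 30 min arrays. Pim3 (0.0950) and Acta1 (0.135) were not called in the 6-array fit.

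Whether a lower signal at 17 h was an early rise that had ended was read from the basal arrays, which the test of the times did not contrast. The 17 h and 30 min means that chose the genes also enter this reading, so it is a description. For 25 of the 124 lower genes the basal mean was closer to the 17 h mean than to the 30 min mean. They differed in how close the basal and 17 h means were, and 18 of them differed at least 2-fold between the times. On a scale with the 30 min mean at 0 and the 17 h mean at 1, the basal mean of Egr1 lay at 0.93, that of Fos at 1.02 and that of Nr4a1 at 1.09, but that of Jun at 0.66, that of Id1 at 0.61 and that of Hspb1 at 0.53. Their median difference was -1.43, and their median basal mean was 1.20 below the 30 min mean. Basal Egr1 signals were 7.81, 6.65 and 6.13, basal Ccn1 signals 5.64, 5.56 and 5.62, and basal Dusp1 signals 7.71, 8.13 and 8.31. The early factors Klf9 (0.10) and Id3 (0.39) were not among the 25. Those not yet named included Ppp1r15a, which directs a phosphatase to the translation factor eIF2α, and Nr1d1, a clock repressor. Replicate 1 was the lowest of the 30 min arrays for 21 of the 25. It lay below the mean of the other 2 arrays by a median of 0.69 (-0.69, log2).

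For the other 99 lower genes the basal mean was closer to that at 30 min. That closeness is how the 99 were sorted, so their median basal minus 30 min difference of -0.01 is no separate result. Single members had moved by 30 min, as had Id3, whose basal mean lay at 0.39 on the scale. Between the times the 99 differed less, by a median of -0.67, and 12 of them did so at least 2-fold. Basal was above both TSH times for 48 of the 124. Of the 102 higher genes 98 had a basal mean closer to that at 30 min and 4 closer to that at 17 h. The division depended on the arrays used. Without replicate 1 of the 30 min arrays 32 of 82 lower genes had the basal mean closer to 17 h, without replicate 2 it was 16 of 47, and without replicate 3 it was 17 of 90. Leaving out each 17 h array gave 20 of 72, 17 of 87 and 19 of 73. With the replicate block it was 43 of 304, and 213 of 235 higher genes were closer to 30 min. Without the arrays numbered 1, basal ones included, it was 33 of 90, and 116 of 122 higher genes were closer to 30 min.

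**Figure D3:**
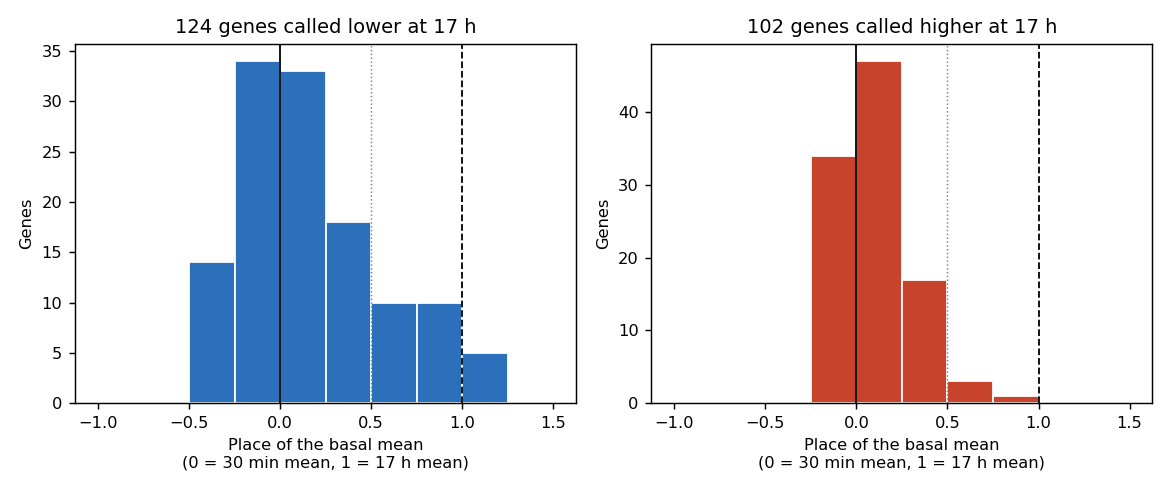
Where the basal mean of each called gene lies on the scale between its 30 min mean (0, solid line) and its 17 h mean (1, dashed line), as the number of genes in steps of 0.25. The dotted line is midway. Of the 124 lower genes 25 lie right of it, and of the 102 higher genes 4 do.

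Among genes of mRNA decay and growth arrest 4 of 8 were called lower, as given above. Btg1, an antiproliferative factor that recruits the mRNA deadenylase, had 9.28, 9.58 and 9.79 at 17 h and 10.78, 11.02 and 10.84 at 30 min (-1.33 ± 0.13, adjusted p = 4.94e-05). Basal Btg1 signals were 10.63, 10.57 and 10.73, close to those at 30 min. Mxi1 (-0.53, adjusted p = 0.0160) and Mxd4 (-0.97, adjusted p = 0.0284), which compete with Myc for its partner Max, were called lower. Both are on the list with Btg1 and Zfp36, whose 4 lower calls became 1 without replicate 2 of the 30 min arrays or replicate 1 of the 17 h arrays, and 2 without replicate 3 of either time. Mxi1 and Mxd4 were not called without replicate 1 of the 30 min arrays (0.0722 and 0.0782), replicate 2 of that time (0.0544 and 0.0791) or replicate 1 of the 17 h arrays (0.0616 and 0.123), nor Mxd4 without replicate 3 of either time (0.0912 at 30 min and 0.0803 at 17 h). Btg3, of the same family as Btg1, was the 1 member called higher (0.53, adjusted p = 0.0428), and its call ended without any of the 5 arrays other than replicate 1 of the 30 min group. In the 6-array fit Mxi1 (0.0814), Mxd4 (0.0650) and Btg3 (0.133) were not called.

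Of 10 circadian clock genes 2 were called lower, beside 2.62% of all genes. Dbp, a clock output factor, had 6.91, 7.17 and 7.15 at 17 h and 8.03, 8.11 and 7.87 at 30 min, with basal signals of 8.07, 8.13 and 7.91 (-0.92 ± 0.12, adjusted p = 0.000434). Nr1d1 had 6.30, 6.67 and 6.64 at 17 h and 7.50, 7.57 and 7.42 at 30 min (-0.97, adjusted p = 0.00114). Both probe sets of each gene were called lower. Nr1d1 was one of the 25 genes above, with basal signals of 7.15, 6.67 and 6.85, while Dbp was still at its basal level at 30 min. Per2, a core repressor, was not called (-0.55, adjusted p = 0.0558), and the block raised the count to 5.

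Selenow, a small selenoprotein, showed the replicate number plainly. It had 5.47, 6.52 and 6.19 at 17 h and 6.97, 7.79 and 7.66 at 30 min, with basal signals of 6.92, 7.83 and 7.72 (-1.41 ± 0.29, adjusted p = 0.0124). Replicate 1 was the lowest at every time, and the groups were still apart. Without replicate 2 or 3 of the 30 min arrays (adjusted p = 0.0702 and 0.0525) or replicate 1 of the 17 h arrays (0.0517) it was not called. The adhesion molecule Icam1 had 8.55, 8.45 and 8.51 at 17 h and 9.70, 9.68 and 9.30 at 30 min (-1.05, adjusted p = 0.0107). The tetraspanin Cd9 (-0.93), the growth factor Bmp4 (-0.93), the peroxisomal and mitochondrial enzyme Ech1 (-1.26) and the nuclear receptor coactivator Pnrc1 (-1.29) were also called lower. Bmp4 lost the call without any of the 5 arrays other than replicate 1 of the 30 min group (0.0501 to 0.150), and Icam1 (0.0554), Cd9 (0.0547) and Pnrc1 (0.0628) lost it without replicate 2 of the 30 min arrays. Selenow (0.0747), Cd9 (0.0553) and Bmp4 (0.0949) were not called in the 6-array fit.

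Of 24 MHC and interferon response genes 3 were called lower and 0 higher, beside 2.62% and 2.15% of all genes. RT1-CE16, a class I heavy chain, had 11.08, 11.34 and 11.37 at 17 h and 11.77, 11.85 and 11.76 at 30 min (-0.53, adjusted p = 0.0163). Stat2 (-0.79, adjusted p = 0.0322) and Irf7 (-0.60, adjusted p = 0.0101) act downstream of interferon. B2m, the light chain of class I, was not called (-0.58, adjusted p = 0.227), but it was with the replicate block (0.0454), which gave 6 lower calls on the list. Without replicate 2 of the 30 min arrays 0 of the 3 were called (RT1-CE16 0.0758, Stat2 0.119, Irf7 0.0590), without replicate 1 of the 17 h arrays RT1-CE16 (0.0681) and Stat2 (0.134) were not, and without replicate 3 of the 30 min arrays Stat2 was not (0.106). None of these 3 was called in the 6-array fit (RT1-CE16 0.0739, Stat2 0.0819, Irf7 0.0719), where 1 other member was called lower. Class I heavy chain genes are near-identical, and their probe sets may read several of them. Of 20 lysosomal genes 19 had lower values at 17 h, with a median of -0.32, and 0 were called. The lowest adjusted p was that of the protease gene Ctsb (-0.64, adjusted p = 0.0531), with 10.11, 9.94 and 10.21 at 17 h and 10.99, 10.83 and 10.34 at 30 min. With the replicate block 6 of the 20 were called lower, and without replicate 3 of the 30 min arrays 2 were.

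**Figure D4:**
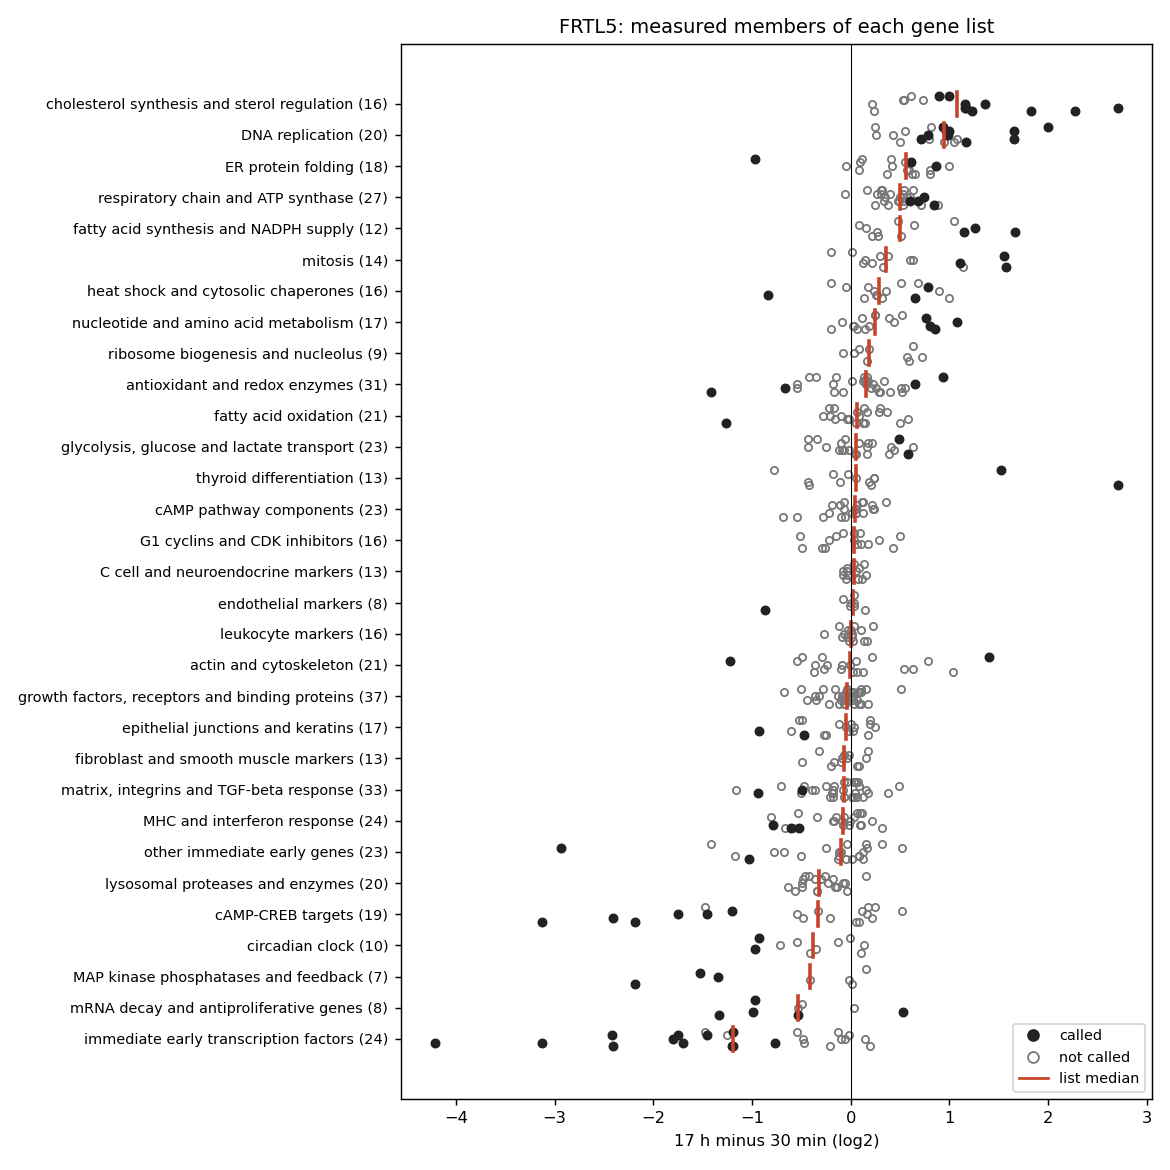
Difference between the 17 h and the 30 min mean (log2) for each measured member of the gene lists, with the number of members in brackets. Filled points were called, open points were not, and red bars are list medians. The cholesterol list has the highest median (1.08) and the immediate early transcription factors the lowest (-1.19).

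The largest rise was that of Slc5a5, the sodium iodide symporter through which thyrocytes take up iodide. It had 9.14, 9.69 and 9.91 at 17 h and 6.79, 6.79 and 7.03 at 30 min, with basal signals of 6.73 to 7.15. The groups were more than 2 log2 units apart, and the mean was 6.55-fold higher at 17 h (2.71 ± 0.18, adjusted p = 5.57e-07). Of 13 measured genes of thyroid differentiation 2 were called higher, Slc5a5 and Kcnj15, beside 2.15% of all genes. The median of the list was 0.05. Kcnj15, a potassium channel subunit, had 9.25, 9.05 and 9.15 at 17 h and 7.45, 7.50 and 7.92 at 30 min (1.52 ± 0.16, adjusted p = 7.33e-05). Its groups were also apart.

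The other thyroid genes did not pass the test. Tg, which encodes the precursor protein of the thyroid hormones, had 9.76, 10.83 and 11.12 at 17 h and 10.32, 11.55 and 11.13 at 30 min (-0.43 ± 0.37, adjusted p = 0.799), and the groups overlapped. Its 4 probe sets disagreed, since the one with signals of 9.93, 10.80 and 10.76 at 17 h and 8.72, 9.52 and 9.60 at 30 min was called higher (1.22, adjusted p = 0.0410). Pax8, a transcription factor of the thyroid lineage, had 8.37, 9.23 and 9.38 at 17 h and 9.50, 10.07 and 9.74 at 30 min (-0.77 ± 0.23, adjusted p = 0.0726). It was called lower with the replicate block (adjusted p = 0.00185), as was the first Tg probe set (0.0462), and without replicate 3 of the 17 h arrays (0.0447). Pax8 was also called lower with the number alone as a block (0.0412), without the arrays numbered 1 (0.0443), over probe sets of mean log2 of at least 6 (0.0461), with array weights (0.0203) and after a second quantile normalization (0.0333). The lineage factor Nkx2-1 had 6.0, 7.79 and 7.72 at 17 h and 6.19, 7.74 and 7.66 at 30 min (-0.03). Replicate 1 read low at both times. A second Nkx2-1 probe set, with 7.10, 7.59 and 7.34 at 17 h and 8.01, 7.81 and 7.96 at 30 min, was called lower (-0.59, adjusted p = 0.0258). Foxe1, the forkhead factor of the lineage, differed by -0.17 (adjusted p = 0.952). The TSH receptor gene Tshr had 6.59, 6.85 and 6.71 at 17 h and 6.56, 6.34 and 6.54 at 30 min (0.24 ± 0.15, adjusted p = 0.655).

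The list of cholesterol synthesis and its regulation had the most calls among the rises, level with DNA replication. Of 16 measured members 10 were called higher and 0 lower, beside 2.15% and 2.62% of all genes, all 16 values were above 0, and the median was 1.08. Acat2 encodes the thiolase that forms acetoacetyl-CoA at the head of the pathway. It had 9.49, 9.89 and 9.76 at 17 h and 7.79, 7.15 and 7.38 at 30 min (2.28 ± 0.29, adjusted p = 0.00039). Idi1 (1.37) and Fdps (1.83) act in the isoprenoid steps. Fdps, the farnesyl diphosphate synthase, had 9.64, 10.57 and 10.14 at 17 h and 8.51, 8.07 and 8.29 at 30 min (adjusted p = 6.91e-05). Fdft1 (0.89), the squalene synthase, and Lss (1.00), the lanosterol synthase, follow. Cyp51, which removes a methyl group from lanosterol, had 9.33, 9.97 and 10.03 at 17 h and 7.46, 7.07 and 6.68 at 30 min, a 6.54-fold higher mean (2.71 ± 0.26, adjusted p = 4.31e-05). Its groups were apart, and 4 of its 5 probe sets were called higher. Mvd (1.16), Msmo1 (1.23), Hsd17b7 (1.15) and Dhcr7 (1.15), enzymes of the mevalonate and of the late sterol steps, complete the 10. Sqle, the squalene epoxidase, was not called, with 11.37, 11.46 and 11.70 at 17 h and 11.11, 10.95 and 10.62 at 30 min (0.62, adjusted p = 0.0887), nor was the sterol sensor Insig1 (0.53, adjusted p = 0.146).

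The count of 10 was 5 without replicate 2 of the 30 min arrays and 6 without replicate 3 of the 17 h arrays. Acat2, Cyp51, Fdps, Fdft1 and Hsd17b7 kept their calls without any single array of the 6. The call of Idi1 ended without replicate 2 of the 30 min arrays (adjusted p = 0.0563) or replicate 1 of the 17 h arrays (0.0509). That of Lss ended without any array but replicate 1 of the 17 h group (0.0527 to 0.111). Mvd lost it without replicate 1 or 2 of the 30 min arrays or replicate 2 or 3 of the 17 h arrays (0.0569 to 0.0907), Dhcr7 without replicate 2 or 3 of either time (0.0839 to 0.136), and Msmo1 without replicate 2 or 3 of the 30 min arrays or replicate 1 or 3 of the 17 h arrays (0.113 to 0.147). In the 6-array fit 5 were called, and Fdft1 (0.0936), Lss (0.208), Mvd (0.0679), Dhcr7 (0.0739) and Msmo1 (0.0779) were not. Basal means of all 5 genes that kept their calls lay near the 30 min means, as in Cyp51 with 7.81, 7.28 and 7.33.

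The promoters of Cyp51 and Acat2, the members with the largest rises, are shown from the same GRCr8 table, Cyp51 at chr4:30991443-30991692 and Acat2 at chr1:50100590-50100839, both on the plus strand. Capitals mark CACNCCAC, a core of the sterol regulatory element, and the CCAAT box, on either strand.
Cyp51: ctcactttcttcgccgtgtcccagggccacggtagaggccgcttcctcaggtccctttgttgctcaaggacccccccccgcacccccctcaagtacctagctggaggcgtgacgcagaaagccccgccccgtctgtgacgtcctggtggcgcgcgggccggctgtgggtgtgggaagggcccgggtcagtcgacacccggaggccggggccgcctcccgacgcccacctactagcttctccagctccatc
Acat2: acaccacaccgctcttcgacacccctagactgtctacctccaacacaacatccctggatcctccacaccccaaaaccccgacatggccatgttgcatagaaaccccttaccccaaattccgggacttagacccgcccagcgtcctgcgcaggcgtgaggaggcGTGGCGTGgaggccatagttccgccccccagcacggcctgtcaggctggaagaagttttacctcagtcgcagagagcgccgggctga
Acat2 held 1 CACNCCAC, on the other strand, and Cyp51 held neither motif within this window. Of the 16 measured genes of the list 14 had a promoter in the table, of which 3 held CACNCCAC and 11 a CCAAT box. In all promoters of the table the shares were 5.70% and 37.7%. Among the called genes of the list 1 of 9 promoters held CACNCCAC and 6 a CCAAT box. The CCAAT box was not particular to this list. It was in 38.3% of promoters of measured genes, 9 of 16 in the immediate early list and 10 of 19 for DNA replication.

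Of 12 genes of fatty acid synthesis and its NADPH supply 3 were called higher, beside 2.15% of all genes, 9 were not called, all 12 values were above 0, and the median was 0.50. The malic enzyme Me1 had 7.04, 7.60 and 7.60 at 17 h and 6.03, 5.55 and 5.67 at 30 min (1.66 ± 0.29, adjusted p = 0.0042). Tkt, the transketolase, had 8.82, 8.80 and 8.77 at 17 h and 7.77, 7.74 and 7.42 at 30 min (1.15 ± 0.14, adjusted p = 0.000285), and the citrate lyase Acly differed by 1.26 (adjusted p = 0.0121). In all 3 the groups were apart. Fasn, the fatty acid synthase, had 7.29, 9.49 and 9.29 at 17 h and 7.18, 7.83 and 7.92 at 30 min, so that replicate 1 fell among the 30 min arrays, and it was not called (1.05, adjusted p = 0.377). The count was 2 without replicate 2 or 3 of the 30 min arrays, where Acly had adjusted p = 0.0602 and 0.0583, and Acly was not called in the 6-array fit (0.0506). It was 5 without replicate 1 of the 17 h arrays and with the replicate block. Of 21 genes of fatty acid oxidation only Ech1 was called, and it was lower.

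Genes of DNA replication were also called higher in number. Of 20 measured members 10 were called higher and 0 lower, beside 2.15% and 2.62% of all genes, all 20 values were above 0, and the median was 0.94. Mcm6 and Mcm5 encode subunits of the replicative helicase. Mcm6 had 9.58, 9.39 and 9.37 at 17 h and 7.47, 7.45 and 7.40 at 30 min, a 4.01-fold higher mean (2.00 ± 0.52, adjusted p = 0.0413). The FRTL5 arrays of Mcm6 were tight, with SDs of 0.12 at 17 h and 0.03 at 30 min, while the FRT/TSHR arrays, which share the error estimate, had SDs of 1.58 and 0.78 at the same times. In the 6-array fit the SE of Mcm6 was 0.10 and the adjusted p = 0.00175, while the calls of Prim2 (0.0645), Pola1 (0.130) and Pold1 (0.114), named below, ended there. Mcm5 had 7.58, 6.92 and 6.85 at 17 h and 5.69, 5.45 and 5.24 at 30 min (1.65 ± 0.38, adjusted p = 0.0212). Pcna, the sliding clamp of the polymerases, had 10.33, 9.71 and 9.78 at 17 h and 8.80, 8.10 and 7.95 at 30 min (1.65 ± 0.41, adjusted p = 0.0296). Replicate 1 of Pcna was the highest at both times. Prim1, the small primase subunit, had 7.73, 7.77 and 7.72 at 17 h and 6.58, 6.60 and 6.53 at 30 min (1.17 ± 0.19, adjusted p = 0.00267). Prim2 (0.72), the clamp loader subunit Rfc4 (0.99), the polymerase subunits Pola1 (0.79) and Pold1 (0.93), the flap nuclease Fen1 (0.99) and the thymidylate synthase Tyms (0.96) were called as well. All probe sets of Mcm6, Pcna, Prim1 and Prim2 were called higher, but only 1 of 3 for Rfc4.

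The DNA replication count was 4 without replicate 2 or without replicate 3 of the 30 min arrays, 5 without replicate 2 of the 17 h arrays and 6 without replicate 3 of that time. Prim1, Prim2, Rfc4 and Tyms kept their calls without any single array. Mcm6 lost its call without any 1 of the 6 (adjusted p 0.0898 to 0.122, differences 1.93 to 2.04), Pcna without any but replicate 1 of the 30 min arrays (0.0576 to 0.119), Mcm5 without replicate 2 (0.0758) or 3 (0.0803) of the 30 min arrays or replicate 1 of the 17 h arrays (0.0872), Fen1 without replicate 2 or 3 of the 30 min arrays or replicate 1 or 2 of the 17 h arrays (0.0555 to 0.0813), and Pola1 (0.0569 to 0.0938) and Pold1 (0.0534 to 0.209) without any but replicate 1 of the 17 h arrays.

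The promoters of Mcm6 and Mcm5 are shown for the same reason as above, Mcm6 at chr13:42404353-42404602 on the minus strand and Mcm5 at chr19:13488563-13488812 on the plus strand. Capitals mark TTTNNCGC, a form of the site of E2F factors, on either strand.
Mcm6: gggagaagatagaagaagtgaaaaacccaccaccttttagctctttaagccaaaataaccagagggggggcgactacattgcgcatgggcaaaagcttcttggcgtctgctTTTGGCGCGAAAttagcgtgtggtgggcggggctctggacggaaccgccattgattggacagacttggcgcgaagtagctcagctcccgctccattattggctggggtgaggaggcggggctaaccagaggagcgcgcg
Mcm5: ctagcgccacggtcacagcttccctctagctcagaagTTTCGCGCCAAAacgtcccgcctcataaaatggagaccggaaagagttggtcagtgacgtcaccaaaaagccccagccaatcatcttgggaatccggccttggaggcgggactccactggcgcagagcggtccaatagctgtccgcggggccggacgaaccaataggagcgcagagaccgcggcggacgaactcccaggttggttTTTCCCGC
Mcm6 held 2 overlapping sites, 1 on each strand, and Mcm5 an overlapping pair and 1 more next to the start. Of the 20 genes 19 had a promoter in the table, of which 8 held TTTNNCGC, while the share over all promoters was 5.19%.

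The markers of mitosis come next. Of 14 measured genes 3 were called higher, beside 2.15% of all genes, 13 values were above 0, and the median was 0.35. Cdk1, the main mitotic kinase, had 7.02, 6.92 and 6.75 at 17 h and 5.73, 5.17 and 5.07 at 30 min (1.57 ± 0.26, adjusted p = 0.00246). Top2a, the topoisomerase that untangles replicated chromosomes, had 9.09, 9.22 and 9.18 at 17 h and 7.93, 7.56 and 7.34 at 30 min (1.56 ± 0.23, adjusted p = 0.00114). Racgap1, a regulator of cytokinesis, differed by 1.11 (adjusted p = 0.0427) and lost its call without any single array (0.0620 to 0.160). The block raised the count to 6. Of the 3 probe sets of Top2a 1 was called. Of 16 G1 cyclins and inhibitors of cyclin-dependent kinases 0 were called, with a median of 0.04, and 1 was called higher with the replicate block or without replicate 1 of the 17 h arrays.

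Tubb5, Tfrc and Rrbp1 were called higher as well. Tubb5, a beta tubulin, had 12.15, 12.70 and 12.34 at 17 h and 10.68, 10.93 and 11.39 at 30 min (1.40 ± 0.24, adjusted p = 0.00372). Tubulin genes are close copies, and their probe sets may share transcripts. The transferrin receptor gene Tfrc had 6.96, 6.24 and 6.05 at 17 h and 5.13, 5.02 and 5.04 at 30 min (1.36 ± 0.30, adjusted p = 0.0168). Rrbp1, a ribosome binding protein of the endoplasmic reticulum, had 8.08, 7.31 and 7.31 at 17 h and 6.31, 6.07 and 6.34 at 30 min (1.33 ± 0.20, adjusted p = 0.00146). In these 3 genes the groups were apart, as the rule that chose them required. The call for Tfrc ended without replicate 2 (0.0681) or 3 (0.0543) of the 30 min arrays or replicate 1 of the 17 h arrays (0.0716). Of 17 genes of nucleotide and amino acid metabolism 4 were called higher, beside 2.15% of all genes. Among them were Mthfd1 of folate metabolism (1.08, adjusted p = 0.00114) and Phgdh of serine synthesis (0.86, adjusted p = 0.00762). Of 9 genes of ribosome biogenesis 0 were called, although 8 values were above 0, and with the block 3 were called higher.

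Genes of protein folding, of the respiratory chain and of the proteasome are read beside the 2.15% of all genes called higher and 2.62% lower. Of 18 genes of protein folding in the endoplasmic reticulum 16 had higher values, with a median of 0.56. The disulfide isomerase Pdia6 (0.86, adjusted p = 0.00111) and the prolyl isomerase Ppib (0.61, adjusted p = 0.0322) were called higher and the oxidase Ero1b lower (-0.96, adjusted p = 0.0117). With the replicate block 12 were called higher and 1 lower, with array weights 7 and 1, without replicate 1 of the 17 h arrays 5 were higher, and without any other single array only Pdia6 was. The call of Ero1b ended without replicate 3 of the 17 h arrays (0.0576), and that of Ppib in the 6-array fit (0.0523). Of 27 genes of the respiratory chain and ATP synthase 26 had higher values, with a median of 0.50. The 4 called were the complex I subunits Ndufv2 (0.75), Ndufs8 (0.68) and Ndufa5 (0.60) and the ATP synthase subunit Atp5pd (0.84). None was called without replicate 3 of the 30 min arrays or without replicate 2 or 3 of the 17 h arrays, 1 without replicate 2 of the 30 min arrays, 2 without replicate 1 of the 17 h arrays, 6 without replicate 1 of the 30 min arrays, 14 with array weights and 15 with the replicate block. In the 6-array fit Ndufs8 (0.0502), Ndufa5 (0.0844) and Atp5pd (0.104) were not called. Outside the list Ndufa4 (0.61), Ndufb5 (0.90), Ndufb8 (0.67) and Cox7b (0.94) were called higher. Ndufb5 lost its call without replicate 2 (0.0503) or 3 (0.0584) of the 30 min arrays and in the 6-array fit (0.0575), and Cox7b without replicate 1 or 3 of the 30 min arrays or replicate 2 or 3 of the 17 h arrays (0.0747 to 0.136) and in the 6-array fit (0.0908). Proteasome genes were picked after their values were seen. Of 27 genes with a proteasome subunit symbol 26 had higher values, with a median of 0.41, and Psmb3 (0.81), Psmb5 (0.74), Psma7 (0.47) and Psma4 (0.41) were called. Of these 4 only Psmb3 kept its call without any single array. Psmb5 lost it without any but replicate 3 of the 17 h arrays (adjusted p 0.0586 to 0.113), Psma4 without any but replicate 1 of the 30 min arrays (0.0620 to 0.164), and Psma7 without replicate 2 or 3 of the 30 min arrays or replicate 1 or 3 of the 17 h arrays (0.0519 to 0.0847). Psma4 (0.134) and Psma7 (0.112) were not called in the 6-array fit either.

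The remaining lists held few calls, to be read beside the 2.15% higher and 2.62% lower of all genes. Of 16 heat shock genes and cytosolic chaperones the mitochondrial chaperonin Hspe1 (0.78) and the co-chaperone Stip1 (0.66) were called higher and the small heat shock gene Hspb1 lower (-0.83), and with the block 7 were higher and 1 lower. Of 31 antioxidant enzymes Gpx2 (0.93) and Gclm (0.66), of glutathione use and synthesis, were higher and Selenow and Gsta4 (-0.67) lower, and with the block 4 each. Of 23 genes of glycolysis Pgk1 (0.58) and Pgam1 (0.49) were higher, and with the block 5. For each of these 2 genes 1 of 3 probe sets was called. Neither was called in a fit of the mean of all probe sets of a gene (adjusted p = 0.349 and 0.108). Of 17 epithelial junction genes and keratins Cd9 and Spint2 (-0.47) were lower, and with the block 4. Of 33 genes of matrix and TGF-beta response Bmp4 and Mmp11 (-0.49) were lower, and with the block 7. Of 21 actin and cytoskeleton genes Tubb5 was higher and Myl6 lower, and with the block 5 and 3. Of 37 growth factors and receptors 0 were called, and 3 were lower with the block. Several of these calls ended with fewer arrays, at differences of similar size. Hspb1 lost its call without replicate 2 or 3 of the 30 min arrays or replicate 1 or 3 of the 17 h arrays (-0.82 to -0.69, adjusted p 0.0765 to 0.0925), and Mmp11 without replicate 1 or 2 of the 30 min arrays or replicate 2 or 3 of the 17 h arrays (-0.46 to -0.42, adjusted p 0.114 to 0.177). Gsta4 lost it without any array but replicate 2 of the 17 h group (-0.70 to -0.51, adjusted p 0.0513 to 0.0866), Stip1 without replicate 1 or 3 of the 30 min arrays or replicate 2 of the 17 h arrays (0.53 to 0.65, adjusted p 0.0527 to 0.0833), and Pgk1 without any 1 of the 6 (0.47 to 0.66, adjusted p 0.0605 to 0.208). So did Hspe1 without replicate 3 of the 30 min arrays (0.0534) and Pgam1 without replicate 2 of that time (0.0616). In the 6-array fit Hspb1 (0.0691), Hspe1 (0.0553), Stip1 (0.0621), Gsta4 (0.0844), Pgk1 (0.121), Pgam1 (0.0648), Spint2 (0.0834) and Mmp11 (0.133) were not called.

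The same 2 times were compared in FRT/TSHR cells on arrays that the FRTL5 comparison did not use. There 0 probe sets were called (limma), 179 had an unadjusted p under 0.05, and 8 were called without replicate 1 of the FRT/TSHR 30 min arrays. The difference of the shifts, FRTL5 minus FRT/TSHR, was called for 35 probe sets (0.400%), 19 above 0 and 16 below, and for 306 with the replicate block. All 35 were also called in FRTL5. Slc5a5 had 5.75, 5.95 and 5.68 at 17 h and 5.81, 5.94 and 5.42 at 30 min in FRT/TSHR cells, and its shifts differed by 2.64 ± 0.26 (adjusted p = 0.000221). Cyp51 was high at both times in FRT/TSHR cells, with 10.64, 10.73 and 11.44 at 17 h and 10.70, 10.98 and 11.24 at 30 min, above every FRTL5 array (difference of shifts 2.75 ± 0.37, adjusted p = 0.00208). Nr4a1 had 5.30, 5.49 and 5.00 at 17 h and 5.34, 5.56 and 4.97 at 30 min in FRT/TSHR cells (difference of shifts -3.10 ± 0.46, adjusted p = 0.00563). Egr1 did not differ in its shift by this test (-2.57 ± 0.83, adjusted p = 0.238). It had 5.80, 6.24 and 5.56 at 17 h and 5.72, 8.74 and 8.06 at 30 min in FRT/TSHR cells, where replicate 1 of the 30 min arrays lay among the 17 h arrays. Ccn1 (-2.48, adjusted p = 0.133), Jun (-2.33, adjusted p = 0.112), Fos (-2.04, adjusted p = 0.238) and Mcm6 (2.17, adjusted p = 0.288) did not pass it either, and a p that misses the threshold does not show that the lines responded alike. The count of 35 was 57 without replicate 1 of the FRTL5 30 min arrays, 13 without replicate 2 of that group, 21 without replicate 2 or without replicate 3 of the FRTL5 17 h arrays, 13 without replicate 1 of the FRT/TSHR 17 h arrays, and 17 and 19 without replicates 2 and 3 of the FRT/TSHR 30 min arrays.

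**Figure D5:**
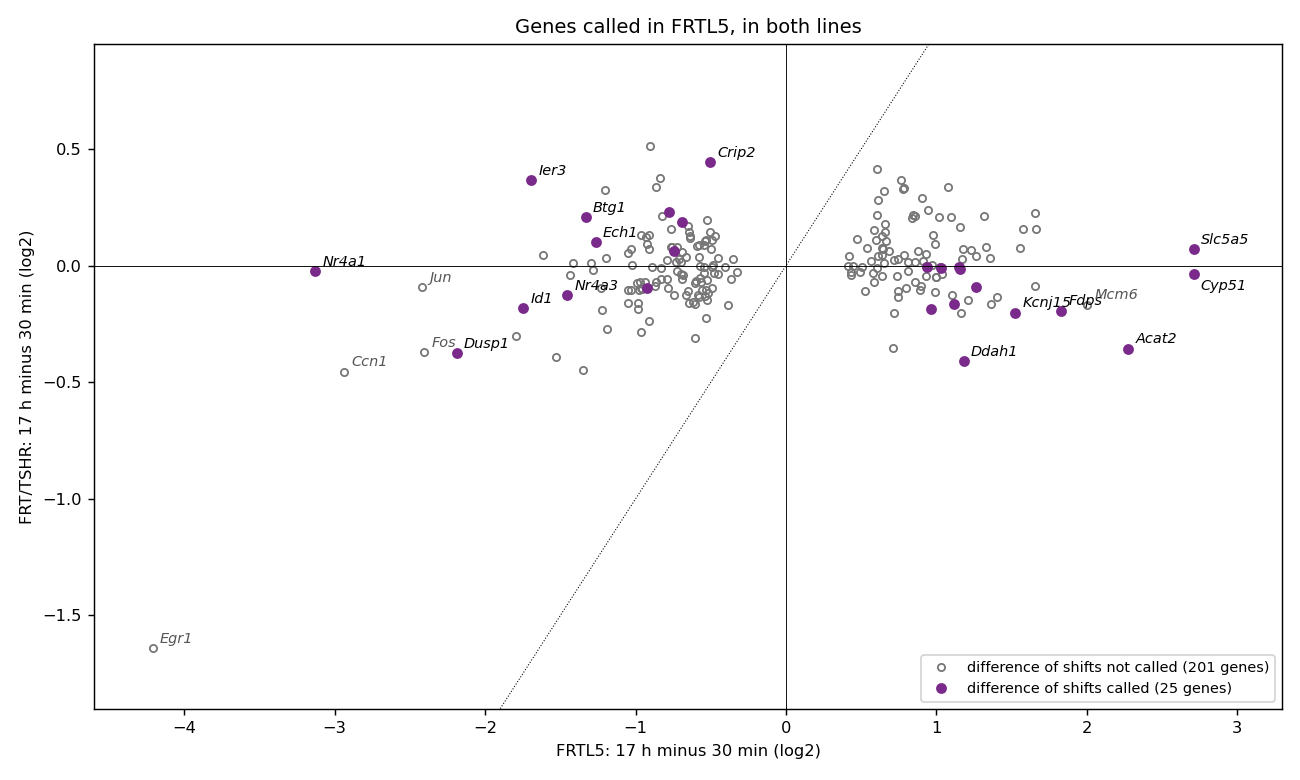
The 226 genes called in FRTL5, with the FRTL5 difference between 17 h and 30 min on the horizontal axis and the FRT/TSHR difference on the vertical axis (both log2). Filled points are the 25 genes whose shifts differed between the lines, and the dotted line is equality. On the vertical axis only Egr1, at -1.64, and Gtf3c1, at 0.51, lie more than 0.5 from 0.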

How the data were processed

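The authors deposited log2 expression values per probe set from 18 Affymetrix arrays, made with RMA per the submitters' processing notes, whose version is not given in the sources used here. Scanner files were not analysed here, so detection above background was not measured. Precision is limited by how many arrays there are. Of 8740 probe sets 7006 carried a single symbol in the platform annotation, 308 carried more than one and 1426 had none, and 6985 matched the GRCr8 gene table by gene number. A gene was read from its probe set with the highest mean, and 1565 genes had several. Group means were fitted to all 18 arrays with limma 3.58.1 in R 4.3.3 (lmFit, eBayes, 12 residual and 3.60 prior degrees of freedom), with two-sided tests and Benjamini-Hochberg adjustment over 8740 probe sets at 0.05. The fit was tested on simulated data with noise drawn independently for each array. There the fit recovered 87% of 100 changes of 1 log2 unit and 99% of 100 of 2 log2 units, with 9 false calls. Deviations shared between arrays, such as those of the arrays numbered 1, were not simulated. Errors are standard errors of log2 differences.

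The deviations of same-numbered FRTL5 arrays correlated at r = 0.70, 0.23 and 0.15 for numbers 1 to 3, so clearly only for number 1. The main fit did not pair arrays. The fit with the number as a block is an alternative, given where it changes a call or a count by over 1.5 times. The labels do not say what a number shares, and replicate 2 at 17 h correlated more with replicate 3 at 30 min (0.61), as did replicate 3 at 17 h with replicate 2 at 30 min (0.63). Named genes were the 15 largest called differences each way with groups apart, up to 4 members of each list by p, and a set of genes chosen by name, not all of which are reported here. Pnrc1, Icam1, Id3, Klf9, Klf10, Zfp36, Mvd, Msmo1, Lss, Fdft1, Dhcr7, Pola1, Pold1, Fen1, Junb, Atf3, Egr3, Sqle, Insig1, Fasn, the 4 proteasome genes, Ndufa4, Ndufb5, Ndufb8, Cox7b, Gtf3c1, Slc7a1, Lbp, Ddah1, Fam111a, Ptprn, Itm2b, Crip2, Gls2 and Traf3ip2 were named after their values were seen. All members and lists were chosen with earlier results of these data known.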

Additional observations from a re-analysis of the deposited data

Results flagged for a closer look

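The shift from 30 min to 17 h differed between FRTL5 and FRT/TSHR cells for 35 probe sets by the test of the difference itself. The 25 genes whose chosen probe set was among them are given here as the FRTL5 shift minus the FRT/TSHR shift (log2). Above 0 were Cyp51 (2.75), Slc5a5 (2.64), Acat2 (2.63), Fdps (2.02), Kcnj15 (1.72), Ddah1 (1.59), Lbp (1.35), Slc7a1 (1.28), Hsd17b7 (1.17), Tkt (1.16), Tyms (1.15), Fam111a (1.04) and Ptprn (0.94). Below 0 were Nr4a1 (-3.10), Ier3 (-2.06), Dusp1 (-1.81), Id1 (-1.57), Btg1 (-1.54), Ech1 (-1.36), Nr4a3 (-1.33), Itm2b (-1.01), Crip2 (-0.95), Gls2 (-0.87), Dbp (-0.83) and Traf3ip2 (-0.81). The calls of Acat2, Btg1, Crip2, Cyp51, Fdps, Id1, Kcnj15, Nr4a1, Nr4a3 and Slc5a5 held in all 12 fits that left out 1 array of these 4 groups. Ier3 had 8.93, 8.79 and 9.51 at 17 h and 8.67, 8.58 and 8.88 at 30 min in FRT/TSHR cells, where the groups overlapped and it was not called. Line, TSH dose and medium cannot be told apart here.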

How the results depend on the processing

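The replicate block of line and number gave 916 called probe sets, 417 higher and 499 lower, and 306 differences of shifts. A block of the number alone, shared by the lines and chosen after seeing the data, gave 584, 267, 317 and 78. Both blocks kept all 115 calls among the named genes. Leaving out 1 array at a time gave 145 to 270 called probe sets, 70 to 146 higher, 75 to 143 lower, 73 to 131 at least 2-fold, 13 to 57 differences of shifts, 0 to 8 calls in FRT/TSHR and 62 to 94 of the 115 named calls. The 6 FRTL5 arrays alone gave 189 (102 higher, 87 lower, 66 named), the 9 FRTL5 arrays 224 (111 lower), and the 4 groups compared alone 10 differences of shifts. Array weights gave 878, 435, 443 and 150, a second quantile normalization 53 differences of shifts, and leaving out the arrays numbered 1 of both lines 110 of them and 2 calls in FRT/TSHR. Without the arrays numbered 1 there were 385 called probe sets, 221 higher and 164 lower, and 22 of the 115 named calls ended. Among those 22 were Mxi1 (adjusted p = 0.225), Mxd4 (0.165), Pnrc1 (0.143), Irf7 (0.100), Spint2 (0.0679) and Id3 (0.0513). Of the 115 named calls 56 held in all 6 fits without 1 array, 59 were lost in at least 1 and 4 in all 6 (Mcm6, Ndufv2, Pgk1 and Racgap1). A fit of the mean of all probe sets of a gene kept 108 of the 115. It ended the calls of Pgk1 (adjusted p = 0.349), Ndufs8 (0.114), Lss (0.112), Pgam1 (0.108), Hspe1 (0.0570), Gclm (0.0524) and Irf7 (0.0524). Nkx2-1 and Foxe1, both uncalled, changed sign: Nkx2-1 was 0.24, 0.21 and 0.56 without replicate 2 or 3 of the 30 min arrays or replicate 1 of the 17 h arrays, 0.052 without the arrays numbered 1 and 0.12 with array weights (-0.53 to 0.56 without 1 array), and Foxe1 was 0.04 and 0.26 without replicate 3 of the 30 min or replicate 1 of the 17 h arrays and 0.0090 with array weights (-0.48 to 0.26 without 1 array). The causes were not tested.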
